A study of Homo sapiens with 6 samples.

Results

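Long noncoding RNA (lncRNA) genes named for a neighbouring gene were examined in the AGO2-bound and unbound RNA of breast cancer cells. A gene was a member if its GENCODE biotype was lncRNA, its symbol ended in -DT (divergent transcript) or in -AS with an optional digit (antisense), and its counts summed to at least 200 over the 4 mimic libraries. These criteria were met by 308 of 60708 gene rows, 88 of them -DT genes and 220 -AS genes. Below the minimum were 500 of 588 -DT genes, with 46 at 0, and 1617 of 1837 -AS genes, with 371 at 0. The members nearest to the minimum were TOX-DT with 205 counts and SLC30A4-AS1 with 200, and the genes just outside were SUV39H2-DT and PSMB8-AS1 with 199 each.

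All libraries came from MDA-MB-231, a mesenchymal line of triple-negative breast cancer. Cells received either the mimic of miR-99b-5p or the scrambled control RNA, at 25 nM with HiPerFect reagent, and were collected after 18 h. Lysates were passed over beads coated with an AGO2 antibody, which gave an AGO2-IP fraction and a flow-through fraction of RNA not retained by the beads. The groups were mimic AGO2-IP (n = 2), mimic flow-through (n = 2), control AGO2-IP (n = 1) and control flow-through (n = 1). All groups therefore share the cell line, the reagent and a transfected small RNA, and the IgG beads of the study were not analysed here, so RNA held by the beads and RNA held by AGO2 cannot be told apart. The fraction of each control library rests on its label alone.

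Divergent transcripts start close to the start of a neighbouring gene and run away from it on the other strand, often from a shared promoter rich in CpG dinucleotides. Antisense genes overlap or face a gene on the other strand, and can share exonic sequence with it in complementary form. Many such RNAs stay in the nucleus, while AGO2, the Argonaute protein that carries miRNAs, binds its targets largely in the cytoplasm, and a few members such as OIP5-AS1 are well-studied cytoplasmic RNAs with miRNA sites.

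The transfected miRNA pairs with targets mainly through its seed, bases 2 to 8, and the members with the longest seed match show what such a site looks like in these classes. The mature sequence (RefSeq, GRCh38.p14, chr19:51692618-51692639, plus strand) is given first with its seed in capitals, followed by windows of 30 bases from annotated transcripts (GENCODE release 44) of the 4 members with a match to the seed followed by A, with the match in capitals.
hsa-miR-99b-5p: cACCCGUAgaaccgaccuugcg
COX10-DT: acagttacacaTACGGGTAtatattacatc
GALNT7-DT: gaaaaattctcTACGGGTAaaatatgttaa
HERPUD2-AS1: aaattgaaataTACGGGTAcaaagatgata
NINJ2-AS1: ttagtaagcgaTACGGGTAtattttaatgc

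Searched on the transcript strand of any annotated transcript, the shorter match ACGGGT to bases 2 to 7, which also lies inside the longer matches, was found in 14 of 88 -DT members (15.9%) and 65 of 220 -AS members (29.5%). The share was 21.8% of the 481 other lncRNA genes tested and 25.9% of the 11747 protein-coding genes tested. Per 100 kb of longest transcript there were 4.95 matches in -DT members and 7.45 in -AS members, against 4.77 in other lncRNA genes and 4.70 in protein-coding genes. The match is a description of sequence and no measure of binding.

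The promoters of the members held many CG dinucleotides. In RefSeq windows of 300 bases, from 250 before to 50 after the start, the median number of CG dinucleotides was 33.5 in 70 matched -DT members and 25 in 168 matched -AS members, against 14 over 27195 promoters. At least 15 CG dinucleotides were held by 95.7% of the -DT windows, 78.0% of the -AS windows and 48.9% of all windows. The letters TATAAA, on either strand, were present in 4.29%, 4.76% and 11.97%. The 27195 promoters were not limited to genes counted in these cells, whereas the members were. These shares therefore do not set the 2 classes apart from other counted genes. The windows of NIPBL-DT and MBTPS1-DT, the divergent genes of the cohesin loader NIPBL and of the site-1 protease MBTPS1, are shown because each contains the start of both genes of its pair and the 2 members lie at opposite ends of the fraction comparison below. They are chr5:36876645-36876944 on the minus strand and chr16:84116793-84117092 on the plus strand (GRCh38.p14), with CG in capitals and 28 and 36 such dinucleotides.
NIPBL-DT: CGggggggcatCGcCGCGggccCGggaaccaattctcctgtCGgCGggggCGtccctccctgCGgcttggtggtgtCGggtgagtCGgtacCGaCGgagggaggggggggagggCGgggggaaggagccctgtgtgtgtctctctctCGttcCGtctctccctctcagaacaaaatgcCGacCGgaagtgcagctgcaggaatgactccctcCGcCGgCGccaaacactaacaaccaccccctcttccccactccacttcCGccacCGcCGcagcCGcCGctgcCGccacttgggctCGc
MBTPS1-DT: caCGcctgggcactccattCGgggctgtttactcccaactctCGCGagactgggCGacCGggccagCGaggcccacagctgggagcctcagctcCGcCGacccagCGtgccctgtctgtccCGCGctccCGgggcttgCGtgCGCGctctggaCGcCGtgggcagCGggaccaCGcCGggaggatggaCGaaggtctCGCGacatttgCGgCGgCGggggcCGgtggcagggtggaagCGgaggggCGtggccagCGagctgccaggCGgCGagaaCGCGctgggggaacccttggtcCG

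The position of the members matched their names for nearly all genes. The gene in the symbol was found for 88 of 88 -DT members and 219 of 220 -AS members, and lay on the opposite strand for 88 and 218. The median distance between the 2 start sites was 142 bases for -DT members and 7642 bases for -AS members, and 80 of 88 against 61 of 220 started within 1000 bases of each other. Partner and member overlapped for 33 -DT and 201 -AS members, and 55 -DT but 16 -AS pairs lay head to head without overlap. The classes had similar GC content in their exons (medians 48.6% and 48.4%), with merged exons of 3304 bases in 3 exons for -DT members and 4447 bases in 5 exons for -AS members at the median.

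Gene counts ranged from 38022779 to 48544756 in the mimic libraries and from 7772149 to 8076375 in the control libraries, where 95% (AGO2-IP) and 92.3% (flow-through) of read pairs were assigned to no gene, most of them because they aligned to several places, against 21.4% to 47.2% in the mimic libraries. Of the markers of the line, AXL, VIM, CD44, FOSL1, MSN and CAV1 lay between 58.98 and 2729 counts per 1000000 gene counts (CPM) in every library. Of the markers it should lack, ESR1, PGR, CDH1 and FOXA1 stayed at 3.96 CPM or less, whereas GATA3 lay between 8.26 and 24.8 CPM. Read pairs that fell on more than 1 gene were 9.31% and 8.85% of those on genes in mimic AGO2-IP but 20.4% and 26.6% in mimic flow-through. These pairs enter no gene's count, a loss that differs between the fractions and touches members that overlap their partners. The flow-through replicates were the less alike, with an SD of the log2 difference between replicates of 1.34 over the members against 0.858 in AGO2-IP. Across members, the flow-through difference (replicate 1 minus replicate 2) went with exonic GC content at a Spearman rho of -0.530, and the AGO2-IP difference at 0.139. Their part in the results below was not tested beyond the fits with the GC trend removed.

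Most members were weakly covered. The median summed count was 507.5 for -DT and 416.5 for -AS members, against 4812 for all genes tested. At least 50 counts in every mimic library were reached by 47 -DT and 114 -AS members, and a ratio between the control fractions, which needed 200 counts in that pair, could be given for 7 and 11. Under 100 counts over the AGO2-IP pair but 100 or more over the flow-through pair were found for 25 -DT and 54 -AS members, and the reverse for 1 and 8. Members of the first kind passed the count minimum mainly through the fraction in which they were higher, so the medians below describe the members and are no test of the classes. Levels per kilobase of merged exon were compared in the 86 -DT and 197 -AS pairs with both genes tested. There, members were counted at a median of 10.5% (-DT) and 12.3% (-AS) of their partner gene, although 9 and 22 members exceeded it. Partners below the count minimum are left out, and AGAP2-AS1 and DLGAP1-AS1, for example, exceeded theirs. These counts also leave out read pairs that fell on more than 1 gene.

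The first question was whether the members were held in the AGO2-IP fraction of mimic-transfected cells or left in the flow-through. Both classes were lower in AGO2-IP on the median, at a log2 fold change of AGO2-IP over flow-through of -0.90 for -DT members and -0.73 for -AS members, while all 13078 genes tested had a median of -0.11. The values within replicate 1 were -0.57 and -0.54, and within replicate 2 -0.82 and -0.71. Below 0 were 63 of 88 -DT members (71.6%) and 161 of 220 -AS members (73.2%), against 53.0% of all genes tested. A log2 fold change of -1 or less was found for 43 -DT and 83 -AS members (background 26.9%), and both AGO2-IP libraries lay below both flow-through libraries for 39 and 88 (background 28.5%) and above them for 10 and 25 (background 28.1%). The medians of LINC-named genes (-0.64, n = 121) and of small-RNA host genes (-0.86, n = 36) lay in the same range. Clone-named lncRNA genes (-0.46, n = 239) and lncRNA genes with other names (-0.48, n = 81) lay nearer to the median of all genes. All 481 other lncRNA genes tested had a median of -0.53 with 66.1% below 0, and the median of protein-coding genes was -0.05.

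By the edgeR quasi-likelihood test, with calls at an adjusted p of 0.05 and a log2 change of 1 in size, no member was called, where 0.245% of all genes tested were called higher and 0.413% lower in AGO2-IP. The smallest adjusted p among members was 0.0742 for ZSCAN16-AS1, and 0.0979 for MBTPS1-DT among the -DT members. At an unadjusted p under 0.05, 7 members were higher (4 -DT and 3 -AS) and 39 lower (11 and 28) beside 10.6% and 13.1% of all genes tested. With the replicate block, 2 members were called higher (background 4.60%) and 12 lower (background 5.08%), and PyDESeq2, the tool of the study, called 4 higher (background 6.45%) and 17 lower (background 8.26%). Leaving out flow-through replicate 1 gave 7 and 40 calls (background 18.8% and 18.5%), and leaving out flow-through replicate 2 gave 0 and 5 (background 2.89% and 4.21%). In these last fits 1 flow-through library stands for its group and is assumed to vary as the AGO2-IP libraries do. With the GC trend removed 0 and 5 were called (background 3.39% and 2.23%).

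The size of the shift moved with the count. Among members with 200 to under 400 summed counts, the median was -1.43 for -DT (n = 33) and -0.73 for -AS (n = 100), beside -0.75 for 712 protein-coding genes of the same range. From 400 to under 1000 counts the medians were -0.86 (n = 31), -0.76 (n = 77) and -0.46 (n = 1116), and at 1000 counts or more -0.29 (n = 24), -0.44 (n = 43) and 0.08 (n = 9919). Weakly counted protein-coding genes thus had medians as low as those of the -AS members in the lowest range, and the part of count depth in the class medians was not tested further. Restricting the members to those with 50 counts in every mimic library gave medians of -0.50 (-DT) and -0.63 (-AS).

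**Figure D1:**
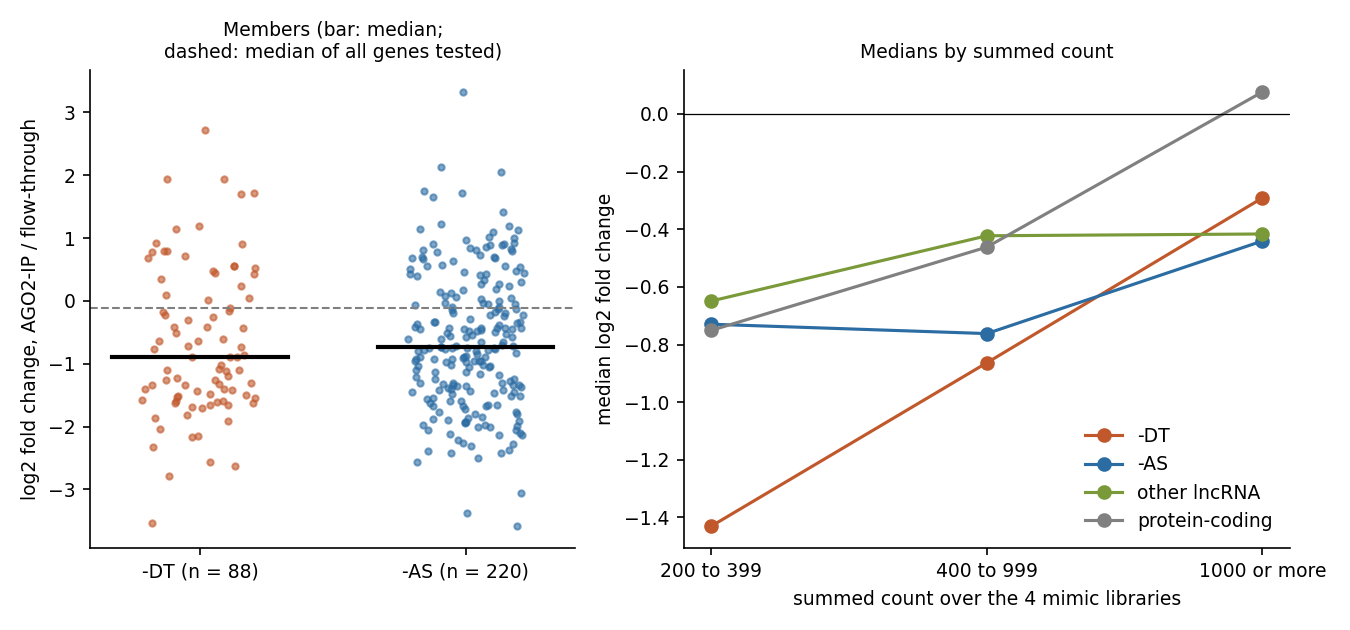
The left panel plots the log2 fold change of AGO2-IP over flow-through (y axis) of each member, with -DT genes in orange and -AS genes in blue, a bar at the class median and a dashed line at the median of all genes tested. The right panel plots the median log2 fold change (y axis) in 3 ranges of summed count (x axis) for 4 gene classes. Class medians were -0.90 and -0.73, and every class but the -AS members had a higher median in each higher range of counts, from -1.43 to -0.29 in -DT members and from -0.75 to 0.08 in protein-coding genes.

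Before TMM scaling, the shares of each library told the same for -DT members but less for -AS members. The -DT members together took 436 and 386 CPM in mimic AGO2-IP and 586 and 533 CPM in mimic flow-through, so that the fractions did not overlap. The -AS members took 1198 and 1289 CPM in AGO2-IP and 1631 and 1095 CPM in flow-through, where the 2 flow-through libraries lay on either side of both AGO2-IP libraries. FGD5-AS1 and OIP5-AS1, the 2 most counted -AS members, made up 34.4% and 37.5% of the class in AGO2-IP and 24.7% and 18.3% in flow-through. Without them, a choice made after seeing the values, the -AS sums were 786 and 805 CPM in AGO2-IP and 1228 and 895 CPM in flow-through, with no overlap. The TMM factors of the fit were 1.172 and 0.8315 for flow-through replicates 1 and 2, beside 1.035 and 0.9917 in AGO2-IP. Dividing by these factors brings the flow-through sums closer together, so the overlap of the full -AS sums depends on the scaling.

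Whether the 2 name classes differed was read from their medians alone. The -DT median minus the -AS median was -0.17 in the fit (log2), -0.03 within replicate 1, -0.11 within replicate 2 and -0.28 with the replicate block. The spread of the class median between replicates was 0.18 (SD, n = 2) for -DT and 0.12 for -AS members, so the difference exceeded the -DT spread with the replicate block but not in the other 3 values. The order of the classes also turned with count, with -DT lower at 200 to under 400 counts and -AS lower at 1000 or more.

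Among the -DT members, the lowest fold changes belonged to the divergent genes of 2 enzymes of the secretory pathway, an NF-kB subunit, a formin and a chromatin factor. MBTPS1-DT (chr16:84117030-84117571, starting 88 bases from MBTPS1) had 0.342 and 0.0789 CPM in AGO2-IP and 1.38 and 3.09 CPM in flow-through, a log2 fold change of -3.53 (SE 1.05), from no more than 16 counts in either AGO2-IP library. MAN1B1-DT, beside the ER mannosidase gene MAN1B1, had 0.663 and 0.552 CPM in AGO2-IP and 3.28 and 4.57 CPM in flow-through (log2 fold change -2.79, SE 0.86). RELA-DT, beside the gene of the NF-kB subunit p65, had 0.299 and 0.316 CPM against 2.38 and 1.44 CPM (-2.62, SE 0.87). In each of these genes both AGO2-IP libraries lay below both flow-through libraries, an order found in 28.5% of all genes tested. Picking the genes by low fold change in these same libraries favours that order.

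FMNL1-DT, beside the formin gene, and MTA1-DT, beside the gene of a subunit of the NuRD chromatin complex, completed the 5 lowest, at log2 fold changes of -2.56 (SE 0.87) and -2.33 (SE 0.81). The deposited files also count each read orientation apart, in columns 3 and 4, and these include pairs shared with a gene on the other strand, which the unstranded counts used here leave out. FMNL1-DT, with 85.2% of its stranded pairs shared, was at -1.24 from either of these columns. MTA1-DT was even between replicates, at 0.856 and 1.24 CPM in AGO2-IP and 5.19 and 5.01 CPM in flow-through. Their adjusted p-values in edgeR lay between 0.0979 and 0.132 for these 5 genes. With the replicate block they lay between 0.00933 and 0.0365, so all 5 were called there, while PyDESeq2 called all but RELA-DT (adjusted p = 0.0625). With the GC trend removed the values of the other 4 lay between -1.93 and -1.26, and RELA-DT was at -2.52.

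At the other end, TFIP11-DT, which starts 2 bases from the start of the spliceosome disassembly factor gene TFIP11 (chr22:26512503-26514568), had the highest fold change of the -DT members. It had 8.56 and 4.92 CPM in AGO2-IP and 1.96 and 0.268 CPM in flow-through (log2 fold change 2.72, SE 0.95, edgeR adjusted p = 0.132). The adjusted p was 0.0066 with the replicate block and 0.0219 in PyDESeq2, which made it a call in both. TFIP11 itself had a log2 fold change of 1.32 (SE 0.63, adjusted p = 0.228).

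NIPBL-DT (chr5:36864425-36876700, 69 bases from NIPBL) had nearly equal AGO2-IP libraries. It had 25 and 24.8 CPM in AGO2-IP and 10.3 and 5.27 CPM in flow-through, a log2 fold change of 1.70 (SE 0.67, edgeR adjusted p = 0.163). Every AGO2-IP library lay above every flow-through library, an order that its choice by high fold change in these libraries favours. With the GC trend removed it was at 0.97. The control pair pointed the same way, with 32.2 CPM in AGO2-IP and 4.76 CPM in flow-through and a log2 ratio of 1.83 without replicates. NIPBL, which loads cohesin onto chromatin, had a log2 fold change of 1.10 (SE 0.61, adjusted p = 0.291).

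GARS1-DT, named for glycyl-tRNA synthetase, had 15.4 and 34 CPM in AGO2-IP and 8.26 and 4.8 CPM in flow-through (log2 fold change 1.94, SE 0.72, edgeR adjusted p = 0.147). PyDESeq2 called it at an adjusted p of 0.0388, and the control pair had a log2 ratio of 1.86. Of its stranded pairs 78.8% were shared with a gene on the other strand, and its log2 fold change from columns 3 and 4 was 0.58 and 0.46 (edgeR adjusted p = 0.579 and 0.662). It was 1.19 without AGO2-IP replicate 2. KDM7A-DT (1.94, SE 0.85), beside a histone demethylase gene, and CRIM1-DT (1.72, SE 1.0) were not called in edgeR, with the replicate block or in PyDESeq2, but both were called with the GC trend removed and the replicate block together (edgeR adjusted p = 0.011 and 0.00637). CRIM1-DT varied with the libraries used, from 0.86 without AGO2-IP replicate 1 and 0.93 without flow-through replicate 2 to 3.61 without flow-through replicate 1, where it was called.

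Among the -AS members, the lowest fold changes rested on few AGO2-IP counts. AGAP2-AS1 (chr12:57726271-57728356) had 0.171 and 0.210 CPM in AGO2-IP, 8 counts in each library, and 1.28 and 2.90 CPM in flow-through (log2 fold change -3.58, SE 0.99). ZSCAN16-AS1, named for a zinc finger gene, had 0.428 and 0.342 CPM in AGO2-IP and 4.92 and 3.11 CPM in flow-through (-3.38, SE 0.86), and the control pair had 7 counts in AGO2-IP and 40 in flow-through. ILRUN-AS1 had 0.235 and 0.263 CPM against 2.55 and 1.63 CPM (-3.06, SE 0.88), with 97.4% of its stranded pairs shared with the other strand, and -0.04 and -0.03 from columns 3 and 4, which count those pairs. In all 3 genes the AGO2-IP libraries were alike and lay below both flow-through libraries, an order that picking by low fold change in the same libraries favours. AGAP2-AS1 was at -2.16 with the GC trend removed, and ZSCAN16-AS1 at -2.24 from column 3.

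SBF2-AS1 (-2.56, SE 0.79), an antisense RNA of the myotubularin-related gene SBF2, had 1.39 and 1.26 CPM in AGO2-IP and 8.53 and 6.78 CPM in flow-through. From columns 3 and 4, which include the 82.4% of stranded pairs shared with the other strand, its log2 fold change was -0.27 and -0.12. SBF2 itself had a log2 fold change of 0.68 (SE 0.61). AGAP2-AS1, ZSCAN16-AS1, ILRUN-AS1 and SBF2-AS1 had edgeR adjusted p-values of 0.0742 to 0.103, and were called with the replicate block (0.00357 to 0.0188) and in PyDESeq2 (0.00226 to 0.0255). ATP2A1-AS1 (-2.50, SE 0.95), named for the muscle calcium pump SERCA1, was called in none of these.

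The -AS members with the highest fold changes by the naming rule were NIFK-AS1 (2.13, SE 0.77), ASH1L-AS1 (2.06, SE 0.83), XPC-AS1 (1.75, SE 0.84), OVCH1-AS1 (1.72, SE 0.83) and FLG-AS1 (1.65, SE 0.78). NIFK-AS1, named for a nucleolar protein that binds Ki-67, had 17.1 and 9.02 CPM in AGO2-IP and 4.19 and 1.90 CPM in flow-through. It was called in PyDESeq2 (adjusted p = 0.0253) but not with the replicate block (adjusted p = 0.0519) or without it (adjusted p = 0.141). ASH1L-AS1, antisense to a histone methyltransferase gene, had 3.94 and 2.29 CPM against 0.787 and 0.659 CPM, and ASH1L a log2 fold change of 1.39 (SE 0.65). From columns 3 and 4, with the shared pairs, ASH1L-AS1 was at 0.25 and 0.32, XPC-AS1 at 0.69 and 0.55, and FLG-AS1 at 0.67 in both, and FLG-AS1 was also at 0.64 with the GC trend removed and 0.48 without AGO2-IP replicate 2. Every AGO2-IP library of these 5 genes lay above every flow-through library, an order found in 28.1% of all genes tested. Picking the genes by high fold change in these same libraries favours that order.

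ARHGEF35-AS1 lay outside the naming rule, having only 43 counts in 1 AGO2-IP library, and is named after its values were seen as the other member called higher with the replicate block (adjusted p = 0.0225) and in PyDESeq2 (0.0194). It had 0.920 and 4.60 CPM in AGO2-IP and 0.319 and 0.227 CPM in flow-through (log2 fold change 3.33, SE 1.03, edgeR adjusted p = 0.104). ARHGEF35 has a near-identical neighbour in ARHGEF5, so reads of that locus may be split between copies and the value is uncertain. The other members called lower with the replicate block were KRT10-AS1, TRAM2-AS1 and C10orf95-AS1, at log2 fold changes of -2.21 (SE 0.73), -2.14 (SE 0.75) and -2.28 (SE 0.84).

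**Figure D2:**
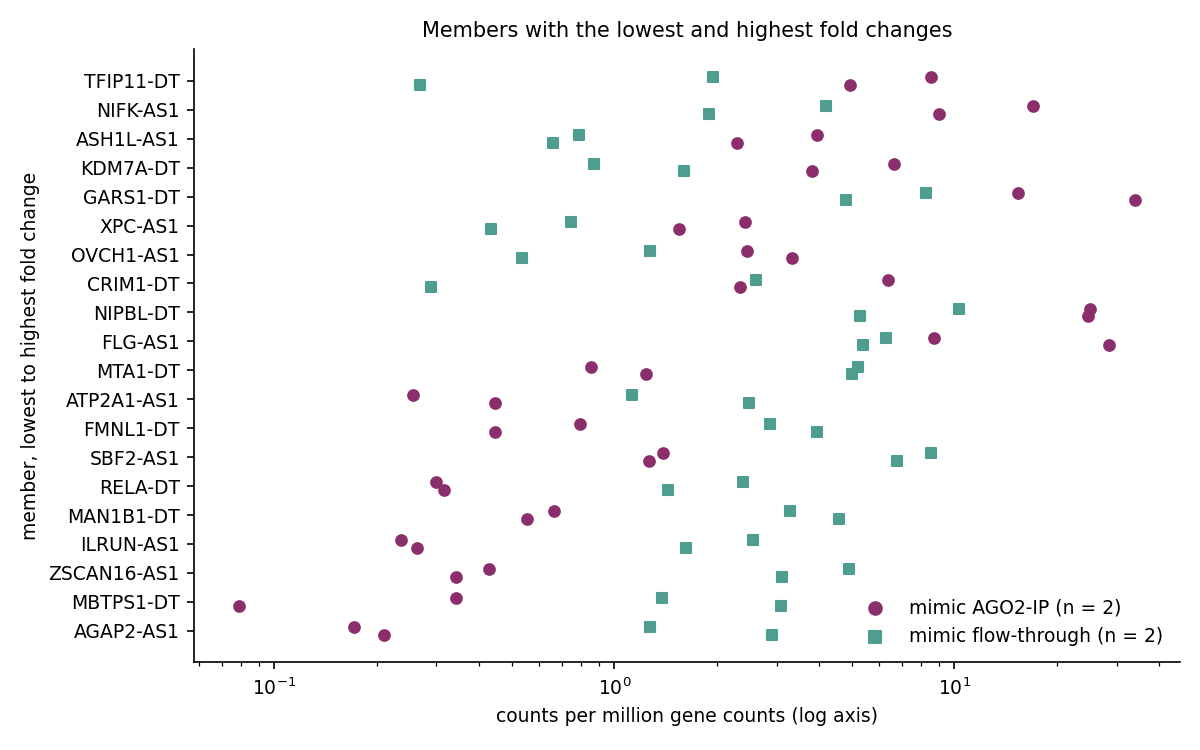
CPM (x axis, log scale) of the 5 lowest and 5 highest members of each name class, ordered by fold change (y axis), in the 2 mimic AGO2-IP libraries (circles) and the 2 mimic flow-through libraries (squares), replicate 1 drawn above replicate 2. Circles lie left of squares in the lower 10 genes, and right of them in the upper 10 except CRIM1-DT, where flow-through replicate 1 (2.62 CPM) exceeded AGO2-IP replicate 2 (2.34 CPM). The genes were picked by fold change in these same libraries, which favours this separation.

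Per kilobase of merged exon, the highest members were TRIM8-DT, ZNF584-DT and ZDHHC12-DT among -DT genes and FGD5-AS1, WNT5A-AS1 and PPP1R15B-AS1 among -AS genes. FGD5-AS1 (35.8 CPM per kilobase) had 250 and 234 CPM in AGO2-IP and 228 and 154 CPM in flow-through. Its log2 fold change was 0.33 (SE 0.57, edgeR adjusted p = 0.746), and its 4 differences between normalised libraries lay between 0.28 and 0.38. With the GC trend removed the value was -0.20. FGD5, a gene of endothelial cells, had no more than 47 counts in any mimic library and was not tested.

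TRIM8-DT (38.1 CPM per kilobase), divergent from the E3 ubiquitin ligase gene TRIM8, had 33.2 and 19.8 CPM in AGO2-IP and 45.6 and 107 CPM in flow-through (log2 fold change -1.69, SE 0.71, edgeR adjusted p = 0.183). Its value was -2.31 without flow-through replicate 1, -0.59 without flow-through replicate 2, and -0.10 with the GC trend removed and all libraries kept. WNT5A-AS1, beside the gene of the noncanonical WNT ligand WNT5A, had 1.82 and 3.13 CPM in AGO2-IP and 3.23 and 19.6 CPM in flow-through (-2.42, SE 1.0, edgeR adjusted p = 0.175) and was at -0.18 without flow-through replicate 2 and at -0.38 with the GC trend removed. ZNF584-DT and PPP1R15B-AS1 also moved with that library: without it they were at -0.04 and 0.70, against -1.33 (SE 0.73) and -0.91 (SE 0.88) with it, and ZNF584-DT was at 0.0224 with the GC trend removed. ZDHHC12-DT (-1.40, SE 0.85), beside a palmitoyltransferase gene, instead had its high value in flow-through replicate 1, with 12.8 CPM beside 2.37 CPM in replicate 2.

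Several members are well-studied lncRNAs. OIP5-AS1, known as a scaffold with a miR-7 site, had 162 and 250 CPM in AGO2-IP and 174 and 46.1 CPM in flow-through, a log2 fold change of 1.0 (SE 0.67, edgeR adjusted p = 0.371). After normalisation each AGO2-IP library lay above each flow-through library, by 0.07 to 2.18 (log2), and without flow-through replicate 1 the value was 1.88, while without flow-through replicate 2 it was 0.45 and with the GC trend removed 0.35. AFAP1-AS1, often raised in carcinomas, had 18.8 and 8.15 CPM in AGO2-IP and 74.7 and 6.82 CPM in flow-through (-1.45, SE 0.90, edgeR adjusted p = 0.341), and went to 0.69 without flow-through replicate 1. For both, the 2 flow-through libraries lay far apart. Of the stranded pairs of AFAP1-AS1, 89.6% were shared with the other strand, and from columns 3 and 4, which include them, it was at -0.70 and -0.77.

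Of the well-studied members, SBF2-AS1 was thus called with the replicate block and in PyDESeq2, and the others were called in neither. ZEB1-AS1 (-0.18, SE 0.79) lay near 0, NNT-AS1 (-0.44, SE 0.68), TMPO-AS1 (-1.38, SE 0.77) and DLGAP1-AS1 (-1.21, SE 0.89) below it, and PSMA3-AS1 (0.31, SE 0.80), MCM3AP-AS1 (0.81, SE 0.86) and HIF1A-AS3 (1.09, SE 0.91) above it. NNT-AS1 and TMPO-AS1 turned to 0.27 and 0.20 when the column 3 counts were used, which include the pairs they share with the other strand (42.1% and 97.2% of stranded pairs). With the GC trend removed NNT-AS1 was instead at -1.25, and it was called there together with the replicate block (edgeR adjusted p = 0.0322). The GAS6 locus, which encodes the ligand of the receptor AXL, has members of both kinds. GAS6-AS1 was at -1.63 (SE 0.80) and GAS6-DT at 0.09 (SE 0.80), while GAS6 had -2.67 (SE 0.79, edgeR adjusted p = 0.0976).

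The second question was whether a member followed the gene it is named for. In 86 -DT pairs and 197 -AS pairs with both genes tested, the member had the lower log2 fold change in 63 and 125. The median of member minus partner was -0.97 for -DT pairs and -0.47 for -AS pairs, with partner medians of 0.38 and -0.05. Members were counted at a median of 10.5% and 12.3% of the partner's level per kilobase. Protein-coding genes themselves had a median of -0.75 at 200 to under 400 counts and 0.08 at 1000 or more. Of all members, 25 -DT and 54 -AS passed the count minimum mainly through flow-through. The part of count depth in this contrast was not tested. Across genes, which are no independent replicates and share libraries, the fold changes of member and partner went together only loosely, at a Pearson r of 0.23 and a Spearman rho of 0.23 in -DT pairs and 0.20 and 0.18 in -AS pairs. Member below and partner above 0 was the most frequent arrangement in -DT pairs (33 of 86), and both below 0 in -AS pairs (82 of 197). No partner was called in the main edgeR fit (background 0.245% higher and 0.413% lower). With the replicate block, 7 of 86 and 14 of 197 were called, not split by direction, beside 4.60% higher and 5.08% lower over all genes tested.

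MBTPS1-DT and RELA-DT show how far pairs from one promoter could differ. MBTPS1 had a log2 fold change of 0.84 (SE 0.58) with 6053 and 4302 counts in AGO2-IP and 3668 and 2709 in flow-through, a member minus partner of -4.37. That gap rests on the few AGO2-IP counts of MBTPS1-DT, the lowest -DT member, which went from -3.53 to -1.93 with the GC trend removed. RELA lay at -2.14 (SE 0.62), close to the -2.62 of RELA-DT. Members starting from the promoters of TFIP11 and NIPBL were above 0 together with their partners.

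**Figure D3:**
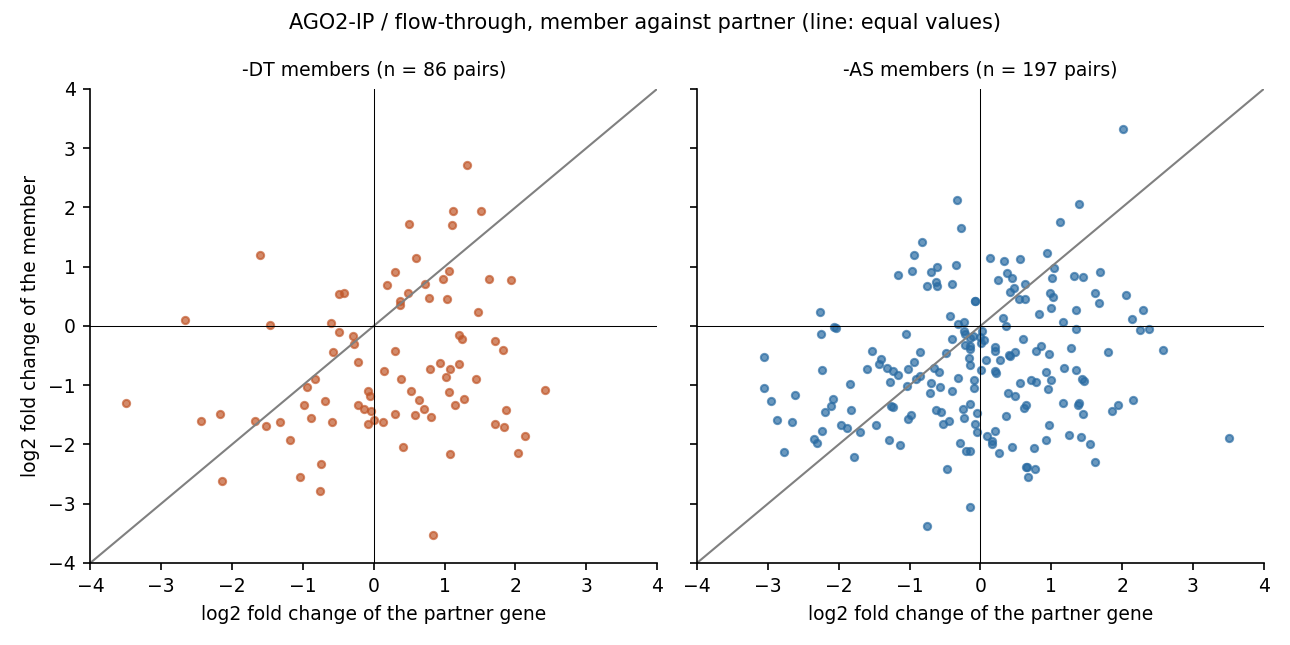
Log2 fold change of AGO2-IP over flow-through of each member (y axis) against that of the gene in its name (x axis), for 86 -DT pairs (left) and 197 -AS pairs (right). The grey line marks equal values, and 63 and 125 points lie below it.

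Grouped by the start of the partner's symbol, every group of 7 or more members had a median below 0, from -1.08 to -0.04. The 18 members named for zinc finger genes had a median log2 fold change of -0.67, with 12 below 0 and a partner median of -0.03. The 10 named for ubiquitin and proteasome genes had a median of -1.08 and were below their partner in 9 pairs, and all 7 named for SLC transporter genes were below 0 (median -0.90). The 8 named for small GTPases and their regulators had a median of -0.04, with 4 below 0, and the 10 named by prefixes of developmental transcription factors a median of -0.62, with 8 below 0. Groups of 2 or 3 members lay at 0.63 (mitochondrial), -0.17 (translation) and -0.95 (RNA-binding), all beside 73.2% and 71.6% of -AS and -DT members below 0 in general.

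The third question was how far counts of overlapping genes could be assigned. The deposited files hold an unstranded count (column 2) and counts for each read orientation (columns 3 and 4), and pairs found in columns 3 and 4 but not in column 2 are those shared with a gene on the other strand. Such pairs were a median of 1.33% of the stranded counts of -DT members and 43.2% of -AS members, and at least 50% in 15 -DT and 100 -AS members. The unstranded count of these -AS genes therefore describes only the part of the gene that overlaps no other gene. The shift toward flow-through was not limited to them, with medians of -0.78 in 65 -AS members under 10% shared pairs, -0.56 in 55 between 10% and 50%, and -0.77 in 100 at 50% or more. For -DT members the medians were -0.89 (n = 54), -1.08 (n = 19) and -1.12 (n = 15). By position, -DT members outside opposite-strand genes were at -0.63 (n = 64), those partly inside at -1.22 (n = 14) and those inside at -1.33 (n = 10). The -AS medians in the same order were -0.58 (n = 49), -0.63 (n = 108) and -0.85 (n = 63). Outside such genes and without shared pairs, 34 -DT members were at -0.45 and 11 -AS members at -1.42. The part of position in the class medians was not tested.

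The libraries carried a slight strand preference. In 7663 protein-coding genes without shared pairs, column 3 held a median of 54.2% of the stranded counts, with 5th and 95th percentiles of 50.7% and 57.2%. The median was 54.9% in 34 -DT members outside opposite-strand genes without shared pairs and 54.1% in 12 -AS members inside opposite-strand genes without shared pairs. It fell to 48.0% in -AS members and 48.9% in -DT members with at least 50% shared pairs. Of the 6 members named as highest per kilobase, 3 lay under 50% with few shared pairs: TRIM8-DT at 47.1% with 0.30% shared, WNT5A-AS1 at 46.2% with 1.36%, and PPP1R15B-AS1 at 43.9% with 8.88%. In these 3 genes column 4 outnumbered column 3, against the preference of the libraries, and their RNA and RNA of the other strand cannot be told apart in the unstranded counts. Overlaps were taken from GENCODE release 44, which differs from the annotation used for counting, as TRIM8-DT lies wholly on an opposite-strand exon there and yet had almost no shared pairs.

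**Figure D4:**
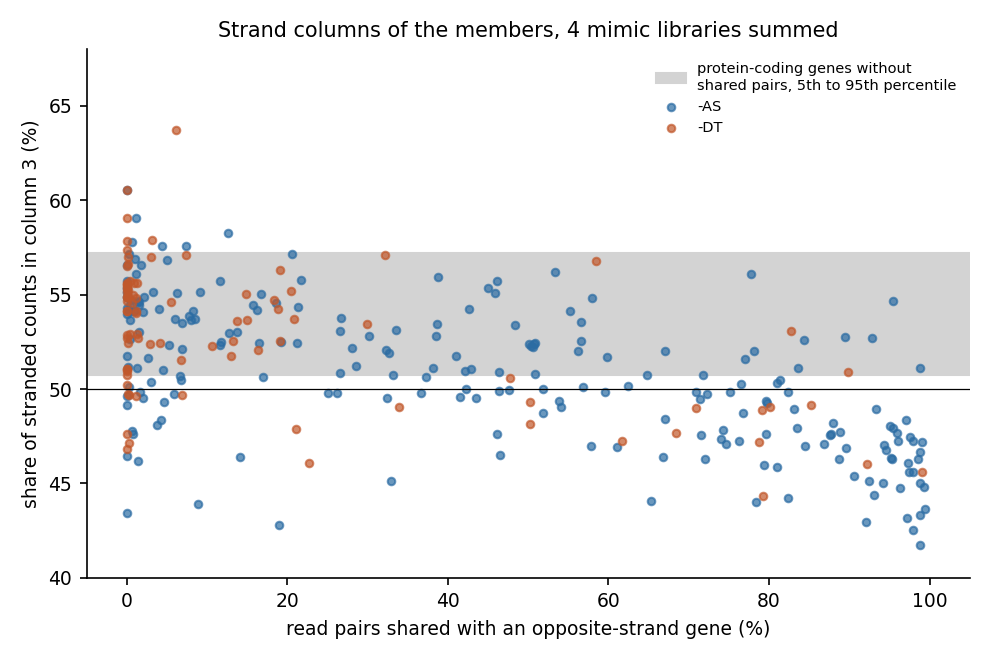
Share of stranded counts in column 3 (y axis, percent) against the share of read pairs shared with an opposite-strand gene (x axis, percent) for -DT members (orange) and -AS members (blue), 4 mimic libraries summed. The grey band spans 50.7% to 57.2%, the 5th to 95th percentile of protein-coding genes without shared pairs, and members with at least 50% shared pairs lie mostly under it, at medians of 48.9% and 48.0%.

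The fourth comparison set the mimic against the scrambled control, with 1 control library per fraction and therefore no test. In AGO2-IP, the log2 ratio of mimic over control had a median of 0.0025 in 41 -DT members and 0.23 in 98 -AS members, beside 0.02 over all genes. At least 1 were 8 and 17 members (background 17.3%), and at most -1 were 4 and 9 (background 17.4%). In flow-through the medians were 0.22 (n = 65) and 0.18 (n = 151), beside 0.05 over all genes. PSMA3-AS1 (2.36), TFIP11-DT (2.33) and NIFK-AS1 (2.11) had high ratios in AGO2-IP among the named members, and KRT10-AS1 a low one (-2.78). Of these, TFIP11-DT, NIFK-AS1 and KRT10-AS1 were named for values from the same mimic AGO2-IP libraries. That choice favours ratios in the direction seen.

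No member with a seed match was called in edgeR, as no member was, and the 4 with the longest match were not called with the replicate block or in PyDESeq2 either, although GALNT7-DT and NINJ2-AS1 were called lower with the GC trend removed and the replicate block together, where 11.9% of all genes tested were. COX10-DT had 8.09 and 13.9 CPM in mimic AGO2-IP and 11.3 and 5.25 CPM in flow-through (log2 fold change 0.45, SE 0.73), and a mimic over control ratio in AGO2-IP of 0.19 (log2). HERPUD2-AS1 had 4.02 and 2.71 CPM against 8.77 and 2.12 CPM (-0.60, SE 0.82) and a ratio of -0.08. GALNT7-DT (-1.12, SE 0.81) and NINJ2-AS1 (-1.72, SE 0.83) had too few counts for a ratio to the control. The median log2 fold change was -0.69 in the 14 -DT members with the match to bases 2 to 7 and -0.96 in the 74 without it, and -0.42 in 65 against -0.76 in 155 -AS members. A longer sequence has more room for a match, and over all 308 members the fold change went with merged exon length at a Spearman rho of 0.20. The members with and without a match were not matched for length or count, so this contrast was not tested.

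In the control pair itself, AGO2-IP over flow-through had a median log2 ratio of 0.44 in 7 -DT members and -0.32 in 11 -AS members, beside 0.01 over all 8245 genes with enough counts. At 1 or more were 2 -DT and 1 -AS members (background 15.9%), and at -1 or less 1 and 1 (background 18.1%). These ratios depend on the scaling, since with library size alone the medians were 1.33 and 0.57 and that of all genes 0.89, so that the -AS value lay above 0 but remained below that of all genes. SLC12A2-DT, divergent from the gene of a sodium-potassium-chloride cotransporter, lay below 0 in both, at -0.90 (SE 0.64) in the mimic fractions and -1.31 in the control pair, and NIPBL-DT and GARS1-DT lay above 0 in both.

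**Figure D5:**
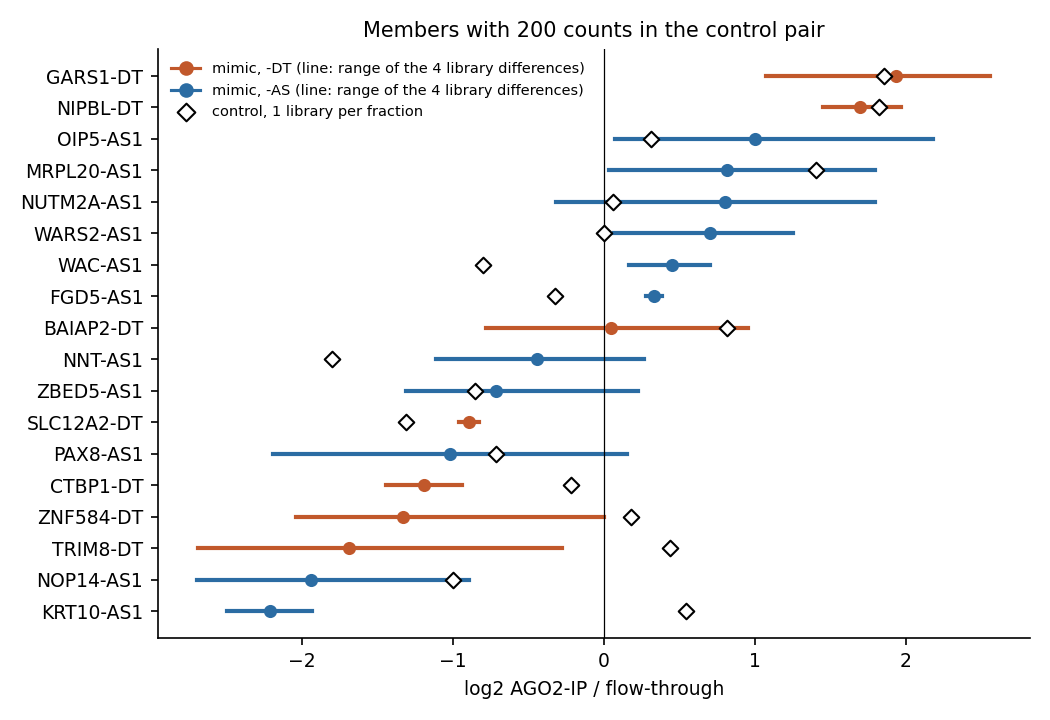
Log2 ratio of AGO2-IP over flow-through (x axis) for the 18 members with at least 200 counts in the control pair (y axis), with the fitted mimic value as a filled point, the range of the 4 differences between mimic libraries as a line, and the ratio of the control pair as an open diamond. GARS1-DT and NIPBL-DT lay above 1 in both, and KRT10-AS1 and TRIM8-DT below 0 in the mimic fractions but above 0 in the control pair. In the mimic fractions with the GC trend removed, TRIM8-DT was at -0.10 and NIPBL-DT at 0.97, and GARS1-DT was at 0.58 and 0.46 from columns 3 and 4.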

How the data were processed

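AGO2-RIP-seq libraries of MDA-MB-231 cells were analysed from the deposited gene counts. The authors trimmed paired-end reads with cutadapt 3.5 after FastQC 0.11.9, aligned them to GRCh38 with STAR 2.7.11b using Ensembl annotation, and deposited its raw counts per gene for both orientations together (column 2) and for each orientation (columns 3 and 4). The annotation release is not given in the sources used here. Columns 2 were used as the main counts, without the rows for unassigned pairs.

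Genes whose counts summed to 200 or more over the 4 mimic libraries were fitted with edgeR 4.0.16 (TMM, quasi-likelihood test, Benjamini-Hochberg adjustment over 13078 genes, R 4.3.3), without a block, with calls at an adjusted p of 0.05 and a log2 fold change of 1. CPM are per 1000000 gene counts. Ratios with 1 control library used TMM-normalised CPM with a prior count of 2. Alternatives were PyDESeq2 0.5.4, DESeq2 1.42.0 size factors, library size alone, strand columns, filters, the replicate block, removal of a GC trend (lowess span 0.2) and leaving out each mimic library. The edgeR script was tested on simulated data. Gene positions came from GENCODE release 44 and sequences from RefSeq and the GRCh38 transcripts.

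Replicate numbers pair an AGO2-IP and a flow-through library of 1 biological replicate, per the labels, and deviations of same-numbered libraries correlated at a Pearson r of 0.32 over all genes. With 2 libraries a group, p-values measure the spread between these libraries only.

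Named members were the 5 highest and 5 lowest of each class by fold change with at least 50 counts in both libraries of the higher fraction, the 3 highest per kilobase, and a list of well-studied members, with their partner genes. CDKN2B-AS1, HOXA-AS2, EGFR-AS1, BDNF-AS, TTN-AS1, STARD13-AS and ZEB2-AS1 of that list were no members. The members and lists were chosen with earlier results of these data known. The medians by count range, the strand shares, the share of genes pointing the other way in the control pair and the -AS sum without its 2 most counted genes were added after seeing the data.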

Additional observations from a re-analysis of the deposited data

Results flagged for a closer look

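Of 18 members with a ratio in the control pair, 12 (66.7%) had mimic fractions that did not overlap, and 4 of these (33.3%) pointed the other way in the control pair. Over all 8225 genes tested with such a ratio the shares were 60.8% and 19.1%, and with control ratios by library size alone 3 members and 27.9% of all such genes pointed the other way. FGD5-AS1 was higher in AGO2-IP in all 4 mimic differences (0.28 to 0.38, log2) and had a control ratio of -0.3226, which was 0.57 by library size alone. WAC-AS1, with a log2 fold change of 0.45 (SE 0.64), had one of -0.8027, which was 0.08 by library size alone. The sign of both control ratios thus depends on the scaling. Library size alone also moved the median control ratio of all genes from 0.01 to 0.89, and both genes stayed below that median. The mimic differences kept their TMM scaling in either case. TRIM8-DT (-1.69, SE 0.71) had a control ratio of 0.442 (1.33 by library size alone) and lay at -0.10 in the mimic fractions with the GC trend removed, and KRT10-AS1 (-2.21, SE 0.73) one of 0.5443 (1.42), with 215 counts in control AGO2-IP and 76 in control flow-through. WAC-AS1 and KRT10-AS1 were named after their values were seen. The difference between mimic and control fractions was not tested, as each control fraction is 1 library.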

How the results depend on the processing

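The -DT and -AS medians of the mimic fractions and of member minus partner stayed below 0 in every alternative run. Calls of members, 0 in each direction, were 2 higher and 12 lower with the replicate block, 0 and 5 with the GC trend removed, 16 and 62 with the GC trend removed and the replicate block (background 14.2% and 11.9%), and 4 and 17 in PyDESeq2, and leaving out each mimic library, with the lone library assumed to vary like the other group, gave 0 to 7 and 0 to 40. Of the libraries left out, flow-through replicate 1 gave the largest counts, with a larger background, and the cause was not tested. With at least 50 counts in every mimic library the medians were -0.50 (-DT) and -0.63 (-AS). The -DT median was -1.01 to -0.54 without each mimic library. The -AS median was -0.54 and -0.58 from columns 3 and 4, -0.57 with a summed count of 50, -0.56 with filterByExpr, -0.59 with the replicate block, -0.53 with the GC trend removed, -0.49 with both, and -0.77 to -0.53 without each mimic library. Member minus partner in -AS pairs was -0.24 from column 3. In the control pair, library size alone gave 1.33 (-DT) and 0.57 (-AS), and columns 3 and 4 gave -0.12 and -0.48 (-AS). For mimic over control, library size alone gave 0.10 (-AS) in AGO2-IP and 0.68 (-DT) and 0.64 (-AS) in flow-through, and leaving out each mimic library gave -0.10 to 0.21 (-DT) in AGO2-IP and 0.21 to 0.42 (-DT) in flow-through.

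Of 555 values for 37 named members, 474 kept direction and side of the threshold, 59 became calls, and 22 in 11 genes changed sign. With the GC trend removed, without and with the replicate block, FGD5-AS1 was -0.20 and -0.17, PSMA3-AS1 -0.28 and -0.37, GAS6-DT -0.0663 and -0.0453, and ZNF584-DT 0.0224 and 0.0587. Without a change of sign, ILRUN-AS1, SBF2-AS1, AFAP1-AS1, FMNL1-DT, ASH1L-AS1, XPC-AS1, FLG-AS1 and GARS1-DT came closer to 0 from columns 3 and 4. These columns add pairs shared with the other strand. TRIM8-DT, WNT5A-AS1 and OIP5-AS1 came closer to 0 with the GC trend removed. From columns 3 and 4, NNT-AS1 was 0.27 and 0.36 and TMPO-AS1 0.20 and 0.0697, and from column 4 GAS6-DT was -0.0226. Without each mimic library the ranges were -2.28 to 0.69 (AFAP1-AS1), -0.13 to 2.42 (HIF1A-AS3), -0.63 to 1.51 (MCM3AP-AS1), -1.65 to 0.70 (PPP1R15B-AS1), -0.34 to 1.36 (PSMA3-AS1), -0.54 to 0.30 (ZEB1-AS1) and -0.63 to 1.09 (GAS6-DT). Few AGO2-IP counts limit the lowest members, and the control libraries of 7772149 and 8076375 gene counts limit every ratio to them.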
